A study of Mus musculus with 27 samples.

Results

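Inducible nitric oxide synthase (Nos2), the enzymes and the transporter that supply it, ornithine decarboxylase (Odc1) and the itaconate enzyme Acod1 were followed through all 27 libraries of the series. The 6 genes, Nos2, Gch1, Slc7a2, Ass1, Odc1 and Acod1, were taken by symbol from the 55483 rows of the deposited table of read counts. All libraries came from RAW264.7, an established mouse macrophage line, and every sample held about 30 M cells harvested after 6 h. Cells received DMSO, LPS at 1 µg/ml (a bacterial cell wall lipopolysaccharide that activates macrophages) together with DMSO (LPS), or LPS at 1 µg/ml with the tanshinone mimic TM7nox at 10 µM (LPS+TM7nox), and no library of TM7nox alone was analysed here. Total RNA (RNA) and RNA recovered on beads with an antibody to HuR, the RNA-binding protein encoded by Elavl1 (RIP), were each profiled in 4 libraries per treatment. Control IgG was profiled in 1 library per treatment, all carrying replicate number 3. The labels do not say whether numbered replicates were separate cultures, so p-values measure the spread between these samples, which may be technical.

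The libraries held 2.73 to 28.3 M counts in RNA, 19.8 to 41.4 M in RIP and 8.87 to 24.5 M in IgG, and RNA DMSO replicate 1 was the shallowest. Of 10 macrophage markers, 9 had a mean of at least 5 CPM (counts-per-million, scaled by TMM over the 27 libraries) in the RNA libraries, and Mertk did not. None of 21 markers of fibroblasts, lymphocytes, epithelium, hepatocytes, endothelium and neutrophils reached 5 CPM, Epcam, Alb and Ly6g had 0 counts in the RNA libraries, and the 21 summed to 0.566 to 2.76 CPM per RNA library under DMSO, 2.62 to 6.72 under LPS and 1.27 to 1.99 under LPS+TM7nox. The macrophage markers summed to 5316 to 6583, 5144 to 7094 and 3609 to 6345 CPM in the same order. In bulk RNA, fewer cells that express a gene and less of its RNA per cell cannot be told apart.

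Activated mouse macrophages make nitric oxide from arginine with Nos2, which needs tetrahydrobiopterin as a cofactor. Gch1 begins the synthesis of that cofactor, Slc7a2 carries arginine into the cell, and Ass1 turns the citrulline left by Nos2 back towards arginine. Odc1 turns ornithine into the polyamine putrescine, and Acod1 makes itaconate from the Krebs cycle intermediate cis-aconitate. HuR is known as a binder of mRNA stretches rich in U or in A and U, often in 3′ UTRs.

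Because the study recovered RNA with an antibody to HuR, the 3′ UTRs of the canonical GENCODE M39 transcripts (GRCm39) were searched on the RNA strand for the pentamer ATTTA and the run TTTTT, which cannot overlap each other. The ATTTA number was 12 in Slc7a2, 7 in Gch1, 3 in Nos2, 1 each in Odc1 and Acod1 and 0 in Ass1. TTTTT was found in 3′ UTRs of 4 of the 6 genes and in neither Nos2 nor Ass1. The 30-base window with the most bases in these motifs is printed for the 5 genes that have one, 5′ to 3′ in DNA letters, with the motifs in capitals. They lie in 3′ UTR exons at chr11:78850922-78850951 (plus strand) for Nos2, chr14:47391885-47391914 (minus) for Gch1, chr8:41374983-41375012 (plus) for Slc7a2, chr12:17600788-17600817 (plus) for Odc1 and chr14:103293295-103293324 (plus) for Acod1.
Nos2: ctatgtacagatATTTAtacttcatATTTA
Gch1: agagctggTTTTTaattttaTTTTTTTTTT
Slc7a2: atgcaaagttggactcTTTTTcTTTTTTTT
Odc1: ttgtgttaaggcatttggggggaccATTTA
Acod1: gggtgcccaaccaacccctcTTTTTTTTTT
Nos2 has a pair of ATTTA pentamers within 1 window, whereas the windows of Gch1, Slc7a2 and Acod1 are T runs. These letters describe the 3′ UTRs, and binding at them was not measured.

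On GRCm39, Nos2 (ENSMUSG00000020826) lies at chr11:78811613-78851080, Gch1 (ENSMUSG00000037580) at chr14:47391346-47426915, Slc7a2 (ENSMUSG00000031596) at chr8:41315431-41375345 and Ass1 (ENSMUSG00000076441) at chr2:31352181-31410862. Odc1 (ENSMUSG00000011179) lies at chr12:17594383-17601507 and Acod1 (ENSMUSG00000022126) at chr14:103284413-103294009. Exons of other genes overlap 9.42% of the exon bases of Acod1, 6.37% of those of Odc1, 2.19% of those of Nos2 and 0 of those of Gch1, Slc7a2 and Ass1. Strand use in counting is not given in the sources used here, so reads of an overlap cannot be told apart. Odc1 also has pseudogene copies in the mouse, and its counts are uncertain to that extent.

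Per kilobase of canonical transcript, the genes spanned a wide range of levels. In RNA of LPS cells the mean CPM per kb was 1063 for Acod1, 1041 for Odc1, 127 for Nos2, 43.1 for Gch1, 34 for Ass1 and 1.45 for Slc7a2. Acod1 (808 to 1212 CPM per kb over 4 libraries) and Odc1 (839 to 1158) overlapped, while Gch1 (36.1 to 48.9) and Ass1 (32.6 to 35.6) did not. In DMSO the order was different, with Odc1 at a mean of 146 CPM per kb, Gch1 at 4.43, Acod1 at 3.44, Ass1 at 1.98, Nos2 at 0.219 and Slc7a2 at 0.00101. Odc1 was thus the 1 gene of the 6 with a mean above 5 CPM per kb before LPS.

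**Figure D1:**
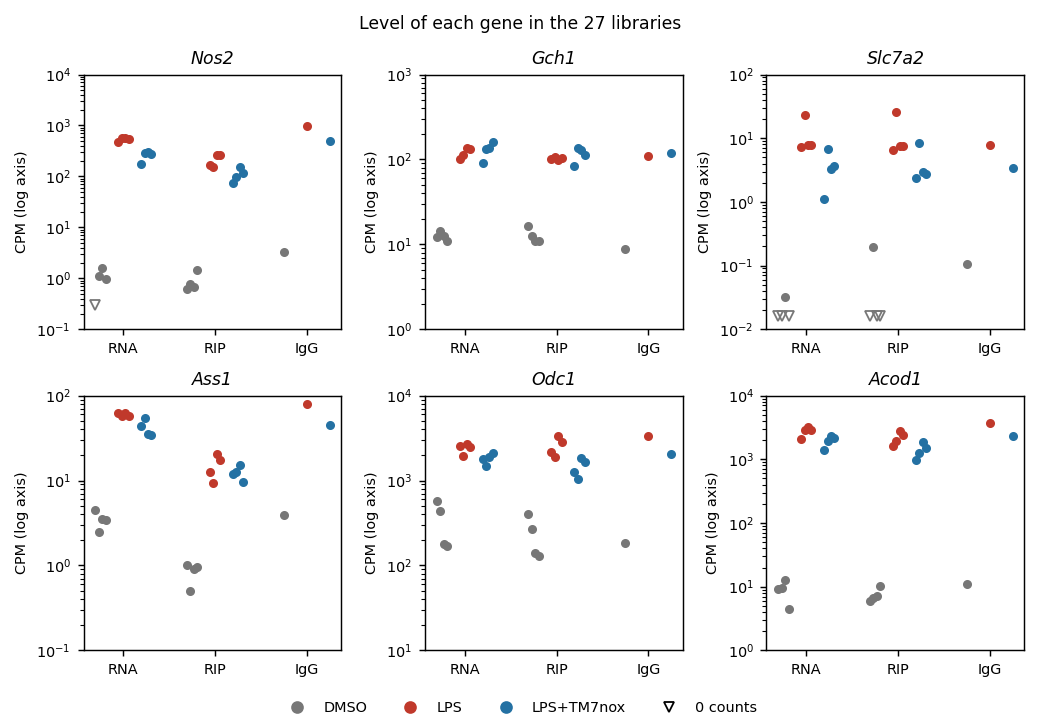
Each point is 1 library; the y axis is CPM on a log scale, and the x axis separates RNA, RIP and IgG libraries, coloured by treatment, with open triangles at the foot of a panel for libraries with 0 counts. Nos2, Gch1, Ass1, Odc1 and Acod1 are higher in every LPS and LPS+TM7nox library than in any DMSO library of the same assay.

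LPS raised the RNA of Gch1, Ass1, Odc1 and Acod1, and Nos2 and Slc7a2 went from few or no counts to a clear level. Nos2 and Slc7a2 passed the filter on low counts only through the groups with LPS, where they are high, so that they had to differ from DMSO, and their calls are a description. All tests are edgeR quasi-likelihood tests with Benjamini-Hochberg adjustment over all genes tested. The share of the 12369 genes tested that was called higher (adjusted p under 0.05) was 20.2%, and 21.7% was called lower. All genes tested had a median log2 fold change of -0.04.

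In the nitric oxide arm, Nos2 stood at 0, 1.11, 1.58 and 0.986 CPM in the RNA of DMSO replicates 1 to 4 and at 478, 556, 560 and 539 CPM in LPS. The LPS libraries lay close together and the groups were far apart, with a log2 fold change of 8.88 (SE 0.346, adjusted p = 9.7e-10). Gch1 stood at 12.1, 14.2, 12.5 and 11.1 CPM in DMSO and at 101, 114, 137 and 132 CPM in LPS, a log2 fold change of 3.25 (SE 0.175, adjusted p = 6.56e-09). Ass1 stood at 4.45, 2.45, 3.57 and 3.45 CPM in DMSO and at 62.7, 57.7, 61.6 and 57.4 CPM in LPS, a log2 fold change of 4.15 (SE 0.204, adjusted p = 3.78e-09). In Gch1 and Ass1 no DMSO library reached any LPS library. Slc7a2 was all but absent in DMSO, with 0, 0, 0.0322 and 0 CPM, and stood at 7.36, 23.1, 7.7 and 7.77 CPM in LPS, where replicate 2 was far above the other 3. Since DMSO held 1 count of Slc7a2 in 4 libraries and LPS 1360, the ratio of shares was 1019, with an exact 95% counting interval of 183 to 40262, and edgeR gave an adjusted p of 1.95e-06. The interval covers counting error only, as PCR copies were not removed by molecular identifiers.

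Odc1, at the entry to polyamine synthesis, stood at 568, 433, 179 and 169 CPM in DMSO and at 2556, 1940, 2678 and 2455 CPM in LPS. Its groups did not overlap, but DMSO replicates 1 and 2 were well above replicates 3 and 4. The log2 fold change was 2.79 (SE 0.353, adjusted p = 2.29e-05) over all 8 libraries, 2.17 in replicates 1 and 2 alone and 3.89 in replicates 3 and 4 alone. The same order of DMSO replicates appeared in RIP, at 399, 266, 140 and 129 CPM. Acod1 stood at 9.33, 9.5, 12.8 and 4.5 CPM in DMSO and at 2119, 2923, 3178 and 2934 CPM in LPS. Every LPS library was above every DMSO library by a wide margin, and the log2 fold change of Acod1 was 8.24 (SE 0.352, adjusted p = 1.36e-09).

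LPS also raised these mRNAs in RIP. Among 13614 genes tested in RIP, 23.5% were called higher with LPS and 21.2% lower, and all 6 genes were called higher, among which Slc7a2 again passed the filter only through the groups with LPS. The log2 fold change was 7.94 for Nos2, 2.99 for Gch1, 4.12 for Ass1, 3.43 for Odc1 and 8.18 for Acod1, with adjusted p-values from 4.21e-11 to 1.32e-06. For Odc1 it was 2.57 in replicates 1 and 2 alone and 4.46 in replicates 3 and 4 alone. Slc7a2 had 6 counts in RIP DMSO, all in replicate 2, and 904 in RIP LPS, a ratio of 140 with a counting interval of 63.9 to 382 (edgeR adjusted p = 1.89e-06). Its log2 fold change was 7.63 and ran from 6.88 to 10.97 over 15 alternative settings. In these 6 genes no RIP DMSO library overlapped a RIP LPS library.

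Other genes of the same pathways did not move as a block with LPS. From a list of 61 genes around nitric oxide, tetrahydrobiopterin, arginine, polyamine and itaconate metabolism, 47 were tested in RNA, of which 6 rose, 11 fell and 30 did not pass the test (beside the 20.2% and 21.7% of all genes given above), with a median log2 fold change of -0.20. The largest rises among genes of at least 5 CPM were in Slc7a7, part of a cationic amino acid exchanger (log2 fold change 2.34), and in the polyamine catabolic enzymes Sat1 (2.20) and Smox (2.07). The largest falls were in the mitochondrial dicarboxylate carrier Slc25a10 (-1.63) and the polyamine transporters Atp13a3 (-1.15) and Atp13a2 (-1.09). Adjusted p-values for these 6 genes ran from 2.49e-06 to 0.00028, and Slc25a10 was not called in replicates 1 and 2 alone (0.0599). Of 5 tested genes of tetrahydrobiopterin synthesis and recycling, Spr fell (-0.87) and the other 4 did not pass. Among 12 tested neighbours of itaconate in the mitochondrion, 2 fell and 10 did not pass, and the succinate dehydrogenase subunit Sdha, among those 10, had a value of -0.20. With counts scaled by library totals, which moved the median of all genes to -0.32, 5 of the 47 rose and 24 fell, in replicates 1 and 2 alone 4 rose and 2 fell, and in replicates 3 and 4 alone 8 of 48 rose and 19 fell. Of all genes, 1629 of 12369 rose and 4253 fell with library totals. In replicates 1 and 2 alone 1048 of 12468 rose and 620 fell, and in replicates 3 and 4 alone 3674 of 12525 rose and 3675 fell. In RIP 7 of 47 rose and 5 fell with LPS, beside 23.5% and 21.2% of all genes. The listed genes gave 13 and 10 with replicate number as a block, 4 and 21 with library totals (median of all genes at -0.63) and 7 and 3 of 60 without the filter. Of all 13614 genes, 4186 rose and 3887 fell with the block, and 1299 and 6428 with library totals. Without the filter 3116 of 36534 rose and 2913 fell. Smox (2.30), Sat1 (1.99) and the transporter heavy chain Slc3a2 (1.16) led the rises in RIP, and Atp13a3 (-1.39), the ornithine carrier Slc25a15 (-1.25) and Slc7a6 (-0.54) led the falls. Slc7a6 was not called in replicates 3 and 4 alone (adjusted p = 0.151).

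With TM7nox added to LPS, Nos2 and Slc7a2 were lower in RNA, and Nos2 was also lower in RIP. With replicate number as a block, Ass1 was also called lower in RNA (adjusted p = 0.0272), and Slc7a2 (2.91e-05), Acod1 (0.00169) and Odc1 (0.0333) in RIP. Gch1 did not pass the test in either assay with or without the block. In RNA 7.37% of the 12369 genes were called higher and 6.40% lower, and 2 of the 6 genes of the set were called, both lower. The 6 had a median log2 fold change of -0.50, beside -0.00 for all genes. This comparison shares its LPS libraries with that of LPS against DMSO.

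Nos2 fell from the LPS values given above to 176, 283, 306 and 279 CPM in LPS+TM7nox replicates 1 to 4. The highest LPS+TM7nox library was below the lowest LPS library, and the ratio within same-numbered libraries was 0.369 to 0.546. The log2 fold change was -1.03 (SE 0.236, adjusted p = 0.0098), and it was called under 14 of 15 alternative settings, the exception being replicates 1 and 2 alone (adjusted p = 0.229). Slc7a2 stood at 1.12, 6.75, 3.29 and 3.7 CPM in LPS+TM7nox. Every library was below the lowest LPS library, replicate 2 was again the highest, and the log2 fold change was -1.61 (SE 0.475, adjusted p = 0.0367). The Slc7a2 call was lost without RNA LPS replicate 2 (log2 fold change -1.03, adjusted p = 0.173) and without RNA LPS+TM7nox replicate 1 (adjusted p = 0.0621), 3 (0.0956) or 4 (0.087).

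Ass1 stood at 43.7, 53.9, 35.8 and 34.6 CPM in LPS+TM7nox RNA. All 4 libraries were below the lowest LPS library, but the log2 fold change of -0.51 (SE 0.171) had an adjusted p of 0.0655. With replicate number as a block, which raised the calls over all genes from 1704 to 3091, Ass1 was called, as it was without RNA LPS+TM7nox replicate 2 (-0.66, adjusted p = 0.0234). Acod1 stood at 1420, 1942, 2319 and 2196 CPM, below its same-numbered LPS library in 4 of 4 pairs, with a log2 fold change of -0.50 (SE 0.254, adjusted p = 0.238). Odc1 stood at 1794, 1469, 1898 and 2131 CPM, also lower in 4 of 4 pairs, with a log2 fold change of -0.40 (SE 0.331, adjusted p = 0.5). For both genes the groups overlapped. Gch1 stood at 91.1, 133, 138 and 162 CPM, higher than its same-numbered LPS library in 3 of 4 pairs, with a log2 fold change of 0.12 (SE 0.157, adjusted p = 0.708). In replicates 1 and 2 alone none of the 6 genes was called and 168 genes were called in all, whereas in replicates 3 and 4 alone 4 of the 6 (Nos2, Slc7a2, Ass1 and Odc1) and 3489 genes were called.

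In RIP 8.64% of genes were called higher with LPS+TM7nox than with LPS and 7.61% lower, and 1 of the 6 genes, Nos2, was called lower. Nos2 stood at 170, 156, 259 and 269 CPM in RIP LPS and at 73, 99.1, 153 and 118 CPM in RIP LPS+TM7nox. No LPS+TM7nox library reached the lowest LPS library, and the log2 fold change was -0.99 (SE 0.261, adjusted p = 0.0166). Without RIP LPS+TM7nox replicate 2 the adjusted p was 0.0509, and in replicates 3 and 4 alone it was 0.0618. Odc1 stood at 2181, 1875, 3356 and 2882 CPM in RIP LPS and at 1267, 1050, 1829 and 1639 CPM in RIP LPS+TM7nox, with ratios within same-numbered libraries of 0.545 to 0.581 and a log2 fold change of -0.87 (SE 0.327, adjusted p = 0.0787). Acod1 had ratios of 0.601 to 0.657 (log2 fold change -0.72, adjusted p = 0.0501), and Slc7a2 had ratios of 0.331 to 0.388 (-1.56, adjusted p = 0.0527). These ratios were tight between replicates, while the levels differed between replicate numbers. With replicate number as a block, 4577 in place of 2212 genes were called, and Nos2 (adjusted p = 0.000144) was among the 4 of the 6 called lower. Slc7a2 was also called without RIP LPS+TM7nox replicate 2 (-2.16, adjusted p = 0.0191) and in replicates 3 and 4 alone (-1.39, adjusted p = 0.0209), while without RIP LPS replicate 2 its value was -0.83 (adjusted p = 0.255). Acod1 was called without RIP LPS replicate 1 (adjusted p = 0.0462) or RIP LPS+TM7nox replicate 3 (0.0323). Ass1 (-0.31) and Gch1 (0.13) did not pass.

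**Figure D2:**
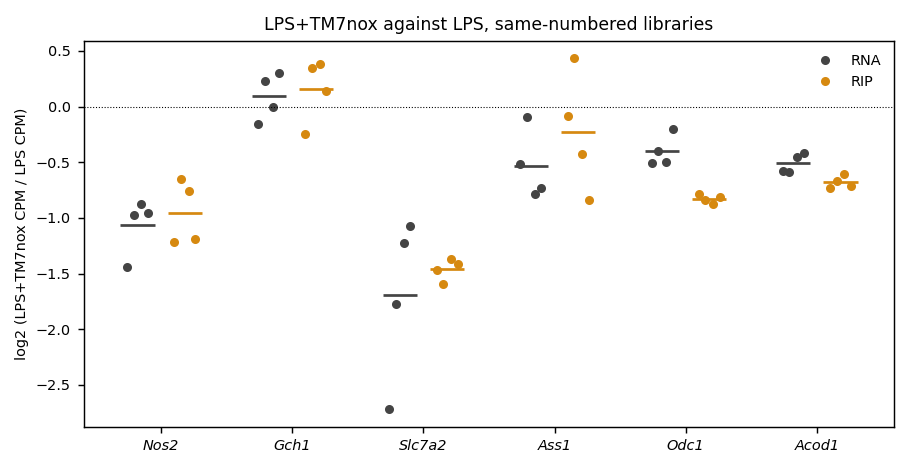
The y axis is the log2 ratio of the CPM in LPS+TM7nox to the CPM in the LPS library of the same number; points are the 4 number pairs and the line is their mean, in RNA (dark) and RIP (orange). All 4 pairs of Nos2, Slc7a2, Odc1 and Acod1 lie below 0 in both assays, and 3 of 4 pairs of Gch1 lie above 0 in each.

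The genes stayed far above their DMSO level when TM7nox was present. In RNA of LPS+TM7nox against DMSO, edgeR called 23.7% of the genes higher and 23.6% lower, and all 6 genes of the set were called higher, Nos2 and Slc7a2 with the same limit of the filter. The log2 fold change was 7.85 for Nos2, 3.37 for Gch1, 3.64 for Ass1, 2.39 for Odc1 and 7.74 for Acod1, with adjusted p-values up to 6.13e-05. For Odc1 it was 1.70 in replicates 1 and 2 alone and 3.56 in replicates 3 and 4 alone. Slc7a2 (8.04) rests on the 1 DMSO count. This comparison shares its libraries with the other comparisons in RNA.

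Of the listed pathway genes tested in RNA, 4 of 47 rose with LPS+TM7nox against LPS and 6 fell, beside 7.37% and 6.40% of all genes. Among the 5 tested amino acid transporter genes, Slc3a2, Slc7a1 and Slc7a5 rose, Slc7a7 fell and Slc7a6 did not pass. Slc3a2, the heavy chain shared by several amino acid exchangers, went from a mean of 160 CPM (range 153 to 168) in LPS to 788 CPM (694 to 870) in LPS+TM7nox, a log2 fold change of 2.30 (SE 0.116, adjusted p = 1.69e-07). Slc7a1, the constitutive arginine importer of the same family as Slc7a2, went from 155 CPM (130 to 167) to 403 CPM (376 to 442), a log2 fold change of 1.39 (SE 0.117, adjusted p = 7.25e-06). Slc7a1 and Slc7a2 thus changed in opposite directions. Aldh18a1, which begins proline and ornithine synthesis from glutamate, rose by 1.28 (adjusted p = 8.27e-05) and the partner Slc7a5 by 0.83 (adjusted p = 0.00142) on the log2 scale. The polyamine enzymes Amd1 (log2 fold change -0.75, adjusted p = 0.00182; it has a near-identical copy, Amd2, so its counts are uncertain) and Srm (-0.56, adjusted p = 0.00184) fell, as did Slc7a7 (-0.70, adjusted p = 0.0423). Slc7a7 was not called with library totals (adjusted p = 0.0505), in replicates 1 and 2 alone (0.379) or in replicates 3 and 4 alone (-0.41, adjusted p = 0.074), and Amd1 (0.15) and Srm (0.184) were not called in replicates 1 and 2 alone. No gene of 5 tested in tetrahydrobiopterin synthesis and recycling was called by edgeR, and their median was -0.04. The counts were 6 higher and 11 lower with the replicate block, 3 and 0 in replicates 1 and 2 alone, 7 and 11 of 48 in replicates 3 and 4 alone, 4 and 3 with library totals, 5 and 11 by DESeq2 and 4 and 2 of 58 without the filter. Of all genes, the share called in either direction was 13.8% in the main fit and 25% with the block. It was 1.35% in replicates 1 and 2 alone and 27.9% in replicates 3 and 4 alone. Library totals gave 12%, DESeq2 18.5% and no filter 6.01%. Leaving out RNA LPS+TM7nox replicate 1 gave 3 lower genes, and leaving out RNA LPS replicate 3, or RNA LPS+TM7nox replicate 3 or 4, gave 2. In RIP 5 of 47 rose and 7 fell, beside 8.64% and 7.61% of all genes, led by Slc3a2 (1.79), Slc7a1 (1.30) and Slc7a5 (1.20) and by the citrate carrier Slc25a1 (-0.99), Srm (-0.91) and Amd1 (-0.90). The counts in RIP were 5 and 14 with the block, 5 and 5 with library totals, 3 and 2 in replicates 1 and 2 alone, 5 and 2 of 48 in replicates 3 and 4 alone, and 4 and 4 of 49 without RIP LPS replicate 1 or 4 or RIP LPS+TM7nox replicate 4. The share of all genes called in RIP was 16.2% in the main fit, 33.6% with the block and 13.9% with library totals. It was 5.59% in replicates 1 and 2 alone and 7.87% in replicates 3 and 4 alone. In RIP, Slc25a1 (adjusted p = 0.0636) and Slc7a5 (0.0729) were not called in replicates 1 and 2 alone, nor Slc25a1 (0.0537) and Amd1 (0.0512) in replicates 3 and 4 alone.

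**Figure D3:**
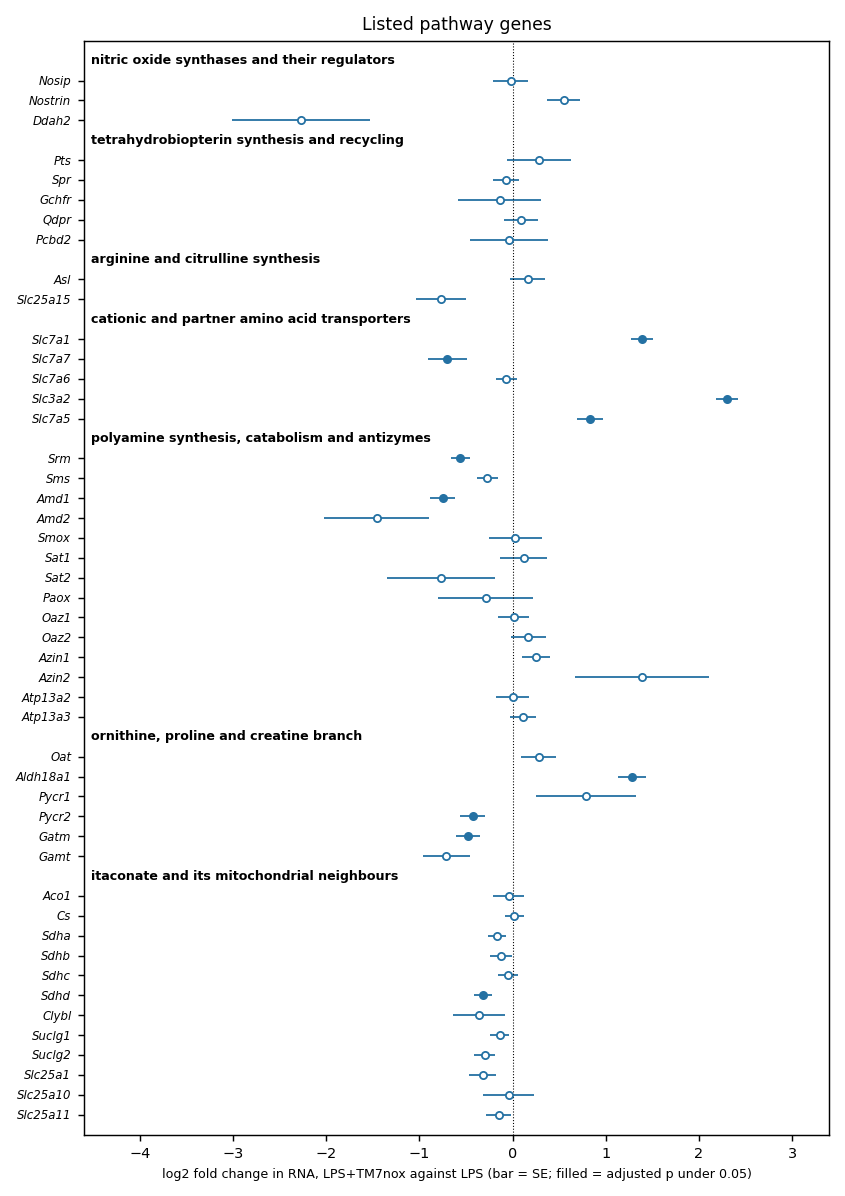
Log2 fold change in RNA of LPS+TM7nox against LPS on the x axis, for the 47 listed genes tested, grouped by pathway on the y axis; bars are standard errors and filled points passed the test. Slc3a2 at 2.30, Slc7a1 at 1.39 and Aldh18a1 at 1.28 lie farthest to the right among the filled points, and Amd1 at -0.75 and Slc7a7 at -0.70 farthest to the left.

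Against DMSO, LPS+TM7nox raised 9 and lowered 17 of the 47 listed genes in RNA, beside 23.7% and 23.6% of all genes. The listed genes gave 7 and 26 with library totals, beside 1862 and 4560 of all 12369 genes. They gave 6 and 4 in replicates 1 and 2 alone, beside 1314 and 932 of 12468. Slc3a2 (3.15), Sat1 (2.32) and Smox (2.10) had the largest rises, and Slc25a15 (-1.77), Slc25a10 (-1.67) and Amd1 (-1.34) the largest falls. Adjusted p-values for these 6 genes ran from 1.46e-09 to 0.000196, and in replicates 1 and 2 alone Slc25a15 (-1.21, adjusted p = 0.0803) and Slc25a10 (-0.94, adjusted p = 0.0892) were not called.

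Recovery with the HuR antibody was compared with total RNA within each treatment, and then with IgG. TMM sets the typical gene to equal levels in RIP and RNA, so each value is relative to that gene. With library totals in its place the median of all genes moved to -0.72, -1.06 and -1.07 in DMSO, LPS and LPS+TM7nox, and relative to that median Nos2 stood at -1.26 and Ass1 at -1.95 in LPS. Mitochondrial transcripts made up 12.1 to 22.4% of counts in RNA, 0.559 to 1.86% in RIP and 5.31 to 6.13% in IgG, and the part of this difference in the ratios was not tested. No gene of the set was called higher in RIP than in RNA by edgeR. In DMSO 37.0% of 14311 genes were called higher and 33.4% lower in RIP than in RNA, and 1 of 6, Ass1, was called lower. In LPS 32.9% were called higher and 30.8% lower, and in LPS+TM7nox 35.2% and 34.8%, with 2 of 6, Ass1 and Nos2, called lower in each. With library totals 5 of 6, all but Slc7a2, were called lower in each of the 3 treatments. Under that scaling 7113, 8134 and 7903 of the 14311 genes were called lower in DMSO, LPS and LPS+TM7nox.

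Ass1 stood at 1.02, 0.496, 0.911 and 0.954 CPM in RIP DMSO, at 12.6, 9.35, 20.6 and 17.4 CPM in RIP LPS and at 11.9, 12.7, 15.3 and 9.73 CPM in RIP LPS+TM7nox. Every RIP library was below every RNA library of its treatment, and the log2 ratio of RIP over RNA was -1.89, -2.0 and -1.78 in DMSO, LPS and LPS+TM7nox (SE 0.208 to 0.249, adjusted p from 7.16e-09 to 2.94e-07). Nos2 had ratios of -1.32 in LPS (SE 0.283, adjusted p = 0.000238) and -1.28 in LPS+TM7nox (SE 0.283, adjusted p = 0.00028). At the low level of DMSO, with 0.61, 0.761, 0.668 and 1.46 CPM in RIP, Nos2 had a ratio of -0.30 (SE 0.376, adjusted p = 0.485). Gch1 (-0.24), Slc7a2 (0.04), Odc1 (0.10) and Acod1 (-0.34) did not pass in LPS. In replicates 3 and 4 alone Gch1 was called lower in LPS (-0.45, adjusted p = 0.015) and in LPS+TM7nox (-0.40, adjusted p = 0.0243). In LPS+TM7nox Acod1 had a ratio of -0.55 (adjusted p = 0.0634) and was called without RNA LPS+TM7nox replicate 1 (-0.71, adjusted p = 0.0213) or RIP LPS+TM7nox replicate 3 (-0.65, adjusted p = 0.0377). Without RNA LPS+TM7nox replicate 1, Gch1 was also called there (-0.40, adjusted p = 0.0462), and without RIP DMSO replicate 1, Odc1 was called in DMSO (-0.76, adjusted p = 0.0435). Replicate number as a block changed 1 call of the set in these ratios, that of Acod1 in LPS+TM7nox, which was then called (-0.54, adjusted p = 0.0118).

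The change of this ratio between treatments was tested as an interaction. For LPS against DMSO, 0.0419% of the 14311 genes were called by edgeR, none of them in the set, and for LPS+TM7nox against LPS 0.00699%, again none in the set. At an unadjusted p under 0.05, 1041 and 771 genes passed, of which 1 (Nos2, with a change of -1.02, SE 0.472, unadjusted p = 0.0396 and adjusted p = 0.655, on the low DMSO counts) and 0 were in the set. DESeq2 called none of the set in either. For LPS+TM7nox against LPS the change of RIP over RNA was 0.04 (SE 0.394) for Nos2, 0.02 (SE 0.261) for Gch1, 0.05 (SE 0.763) for Slc7a2, 0.22 (SE 0.286) for Ass1, -0.46 (SE 0.463) for Odc1 and -0.21 (SE 0.367) for Acod1. These standard errors are as large as, or larger than, most of the changes.

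Some of these mRNAs stood higher in IgG than in RIP, relative to the typical gene. As for RIP over RNA, TMM sets that gene equal, so the amount of RNA recovered is not given. Over 15 libraries with treatment as a covariate, 33.8% of 14973 genes were called higher with anti-HuR than with IgG and 34.2% lower, and 3 of the 6 genes were called lower. With library totals 5 of the 6 were called lower, beside 8357 of the 14973 genes. The log2 fold change was -2.21 for Ass1 (SE 0.188, adjusted p = 4.23e-09), -2.14 for Nos2 (SE 0.207, adjusted p = 2.33e-08) and -0.71 for Acod1 (SE 0.197, adjusted p = 0.00359). Gch1 (0.07), Slc7a2 (0.30) and Odc1 (-0.24) did not pass. Nos2 stood at 3.25 CPM in the IgG library of DMSO, 966 in that of LPS and 505 in that of LPS+TM7nox, above each RNA and RIP library of the same treatment. Ass1 stood at 80 CPM in IgG LPS, above its RNA libraries, but at 3.98 CPM in IgG DMSO and 45.2 CPM in IgG LPS+TM7nox, inside the range of its RNA libraries. Odc1 was above its RNA libraries in IgG LPS, at 3385 CPM, and inside their range in IgG DMSO (182 CPM) and IgG LPS+TM7nox (2077 CPM). Acod1 stood at 11, 3724 and 2320 CPM in IgG of DMSO, LPS and LPS+TM7nox, which was above its RNA libraries in LPS, level with the highest (2319 CPM) in LPS+TM7nox and inside their range in DMSO. Gch1, at 8.91, 111 and 120 CPM, was below its RNA libraries in DMSO and inside their range in the other two. Each IgG value is 1 library, so no test within a treatment was possible. With library totals the median of all genes moved to -1.02.

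**Figure D4:**
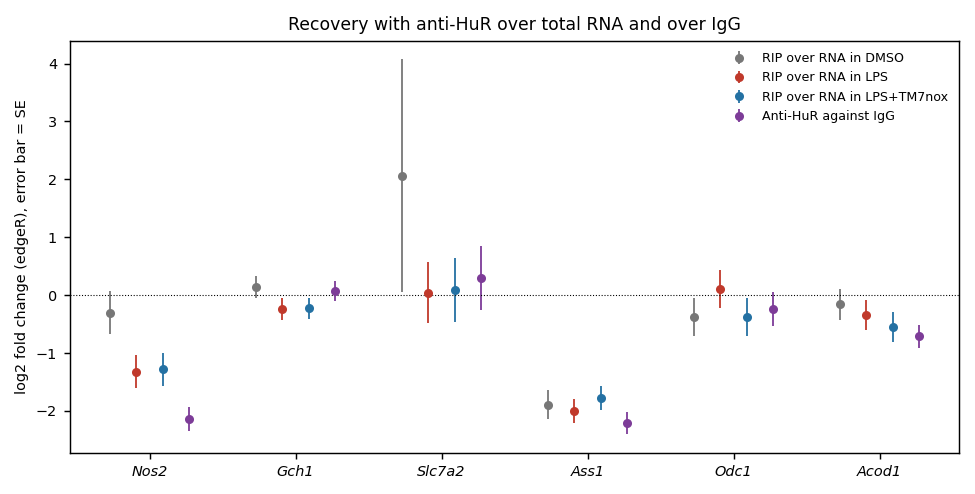
Log2 fold change on the y axis with its standard error, for RIP over RNA in DMSO (grey), LPS (red) and LPS+TM7nox (blue) and for anti-HuR against IgG over the 3 treatments (purple), by gene on the x axis. Ass1 is at or below -1.78 in all 4, Nos2 is at or below -1.28 in 3 of them, and the wide bar of Slc7a2 in DMSO rests on 1 RNA and 6 RIP counts.

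Among the listed pathway genes, 7 of 48 tested were called higher and 26 lower in RIP than in RNA of LPS cells (6 and 36 with library totals), beside 32.9% and 30.8% of all genes. With library totals 2833 of all 14311 genes were called higher and 8134 lower. Gatm, the first enzyme of creatine synthesis (2.76), Slc7a5 (2.49) and Atp13a3 (2.19) were the highest, and the Krebs cycle genes Sdhb (-1.64), Sdha (-1.51) and Suclg1 (-1.46) the lowest. DMSO gave 10 higher and 28 lower (6 and 35 with library totals), beside 37.0% and 33.4% of all genes, and LPS+TM7nox 8 and 28 (7 and 35), beside 35.2% and 34.8%, with Gatm, Slc7a5 and Atp13a3 again the highest. Library totals gave 3776 higher and 7113 lower of all genes in DMSO, and 3324 and 7903 in LPS+TM7nox. Slc7a5, Atp13a3 and Gatm were also higher with anti-HuR than with IgG, by 3.12, 2.44 and 2.34 on the log2 scale, and Sdha (-2.25), Suclg1 (-2.04) and Aldh18a1 (-1.83) were lower. Of the 50 listed genes tested against IgG, 9 were higher and 29 lower (6 and 38 with library totals), beside 33.8% and 34.2% of all genes. Library totals gave 2903 higher and 8357 lower of all 14973 genes.

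The 3′ UTR pentamers printed above were set beside these ratios. Of 10996 tested genes with a 3′ UTR of at least 50 bases, 73.5% held an ATTTA, 42.6% held at least 3, as Nos2 does, and 16.4% held at least 7, as Gch1 and Slc7a2 do, and 81.2% held a TTTTT. Over all genes, the median log2 ratio of RIP over RNA in LPS was -0.69 with 0 ATTTA, -0.38 with 1 to 2, 0.08 with 3 to 6 and 0.67 with 7 or more. Longer 3′ UTRs hold more pentamers, and the number was not adjusted for length. Nos2, at -1.32, lay below the interquartile range of its class (-0.60 to 1.31), and Ass1, at -2.0, below that of its class (-1.16 to 0.01). Slc7a2 lay within the interquartile range of genes with 7 or more (-0.24 to 2.01), and Gch1, at -0.24, at its lower edge. Odc1, at 0.10, and Acod1, at -0.34, lay within that of genes with 1 to 2 (-0.95 to 0.47).

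**Figure D5:**
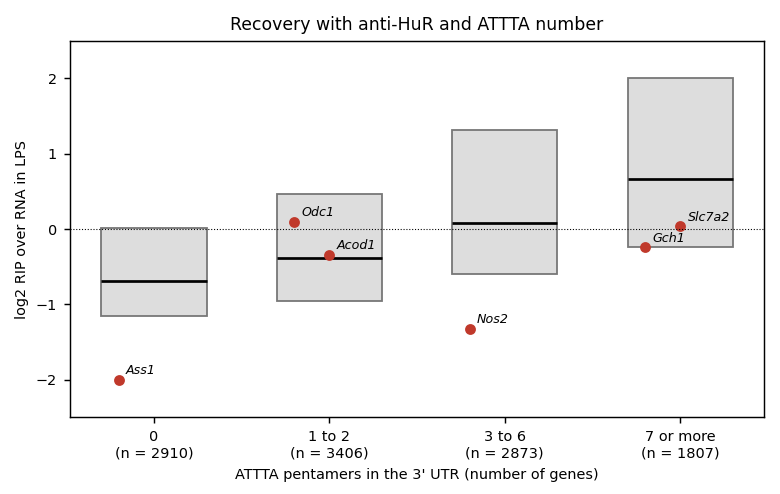
Log2 ratio of RIP over RNA in LPS on the y axis against the number of ATTTA pentamers in the 3′ UTR on the x axis; grey boxes span the quartiles of all genes in a class with the median as a line, and red points are the 6 genes. The medians run from -0.69 to 0.67 across the classes, and Nos2 and Ass1 lie below the boxes of their classes.

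Promoter windows of 300 bases that end 50 bases after the gene's start (RefSeq, GRCm38.p6) were found for 4 of the 6 genes: Acod1, Ass1, Gch1 and Odc1. They were searched on both strands for an NF-kB motif, the AP-1 motif TGACTCA, the C/EBP motif TTGCNNAA, an interferon response element and the TATA box TATAAA, which are held by 1.63%, 5.2%, 10.8%, 3.44% and 13.6% of the 32851 windows of that length. Acod1 is shown because it is the gene with the largest rise of the 4 and holds a TATA box 28 bases before its start, in capitals. Its window is chr14:103046762-103047061 (plus strand).
Acod1: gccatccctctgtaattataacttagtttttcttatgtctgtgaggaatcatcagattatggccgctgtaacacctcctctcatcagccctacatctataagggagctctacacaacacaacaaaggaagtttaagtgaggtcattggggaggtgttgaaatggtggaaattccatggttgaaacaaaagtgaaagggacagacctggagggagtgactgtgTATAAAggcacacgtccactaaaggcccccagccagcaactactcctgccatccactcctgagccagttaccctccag
Gch1 held TATAAA on the other strand, at position -188 from its start, and the other searches gave no match in the 4 windows. A match describes letters only, and factor binding was not measured.

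The 6 genes followed each other closely over the 12 RNA libraries, which share 3 treatments, so that the correlation mostly follows DMSO against LPS. Pearson's r of log2 CPM ran from 0.867 (Nos2 with Odc1) to 0.991 (Gch1 with Acod1) over the 15 pairs. Among 8222 genes, those most like Nos2 in this measure were Gbp2, an interferon-induced GTPase (r = 0.996), Usb1 (0.995) and the cytokine subunit gene Il27 (0.995). From LPS to LPS+TM7nox the mean went from 146 to 107 CPM for Gbp2, from 87.7 to 70.5 for Usb1 and from 326 to 140 for Il27. Since likeness was taken over libraries of both treatments, such means follow in part from the choice of the genes. Those most like Slc7a2 were the kinase gene Jak2 (0.995), the chemokine gene Ccl22 (0.989) and the activation marker Cd69 (0.987), with means going from 135 to 94.8 CPM for Jak2, from 105 to 25.1 for Ccl22 and from 13 to 4.46 for Cd69.

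Gch1 was most like Mndal (0.998), the interferon-induced Cmpk2 (0.996) and Peli1 (0.996). Mndal stood at a mean of 176 CPM in LPS and 194 in LPS+TM7nox, Cmpk2 at 1390 and 1625 and Peli1 at 191 and 198. Ass1 was most like the endoribonuclease gene Zc3h12a (0.996), the cytokine signalling inhibitor Socs3 (0.994) and the receptor gene Cd40 (0.993). Odc1 was most like the chemokine gene Ccl2 (0.988), with Ell2 at 0.986, and Acod1 most like the growth factor gene Csf3 (0.996), the receptor gene Tnfrsf1b (0.996) and Smim3 (0.995).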

How the data were processed

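The authors deposited 1 table of raw read counts per gene and library, whole numbers with no normalization, with gene symbols, per the file headers. FastQC 0.11.9, STAR, HTSeq, DESeq2 and the build GRCm39 appear in the submitters' processing notes without their roles. For the annotation release and the strand setting, the sources used here give nothing. Libraries were made with a stranded kit from 7 ng of RNA, per the labels' protocols. The 6 genes, the gene lists and the tests were chosen with earlier results of these data known.

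The test on counts was that of edgeR 4.0.16 under R 4.3.3 (quasi-likelihood F tests, two-sided, TMM scaling, filterByExpr with a minimum count of 10, Benjamini-Hochberg adjustment over all genes tested, calls at an adjusted p under 0.05). One fit held the 12 RNA libraries and another the 12 RIP libraries. No main fit held a term for replicate number, so the main calls do not use the pairing by number described below. Ratios of RIP over RNA and their changes came from 1 fit of 24 libraries, and the contrast of anti-HuR with IgG used 15 libraries, with a term for treatment. Alternatives were DESeq2 1.42.0, RLE size factors, library totals, no filter, replicate number as a block, replicates 1 and 2 or 3 and 4 alone, and each library left out.

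Genes named from the 61-gene list are, per comparison and direction, the 3 called genes with the largest change and a mean of at least 5 CPM, and a few others were named after their values were seen. Of the listed symbols, Pycr3 was not matched. Some genes of the set and of the lists are not reported here. Likeness was ranked by Pearson's r of log2 CPM (prior count 2), leaving out predicted genes. Replicates differed beyond sampling noise in each of the 36 pairs within groups (chi-square per gene 38 to 213). Whether replicate numbers pair samples was checked by correlating deviations from group means: all 12 same-numbered pairs within RNA (r 0.14 to 0.37) and all 12 within RIP (0.22 to 0.51) exceeded 0.1, as did 34 of 36 between RNA and RIP, so within each assay the numbers pair the samples.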

Additional observations from a re-analysis of the deposited data

Results flagged for a closer look

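Over the 6 genes, 36 groups of 4 libraries were examined for 1 library apart from the other 3. This was judged by the gap to the nearest library as a share of the group's range, and chance alone gives about 1 in 20 groups. Slc7a2 had such a library in 3 of its 4 groups with LPS, each time replicate 2. RNA LPS replicate 2 stood at 23.1 CPM beside 7.36 to 7.77 CPM in the other 3, and RIP LPS replicate 2 at 25.6 CPM beside 6.57 to 7.61 CPM. RIP LPS+TM7nox replicate 2 stood at 8.47 CPM beside 2.38 to 2.96 CPM. In DMSO, RNA replicate 3 (1 count, 0.0322 CPM) and RIP replicate 2 (6 counts, 0.198 CPM) also stood apart, but with 0 in the other 3 libraries any count does so by construction. No other gene of the 6 had such a library.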

How the results depend on the processing

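Over 66 results for single genes and 1122 alternatives, 1010 kept direction and side of the threshold, 8 lost the call, 40 gained it and 64 turned direction; the cause was not tested. Depth limits the DMSO values of Nos2 and Slc7a2, which rest on few counts.

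With replicate number as a block, the genes called went from 1704 to 3091 for LPS+TM7nox against LPS in RNA, from 2212 to 4577 in RIP, from 6 to 50 for the change of RIP over RNA by LPS and from 1 to 2 for that by LPS+TM7nox, and 4 in place of 1 of the 6 genes were called in RIP. The block also turned Slc7a2 to -0.01 (RIP over RNA in LPS) and -0.29 (anti-HuR against IgG) and Gch1 to -0.01 (anti-HuR against IgG). Beside these and the calls given with the results, it changed no call of the 6 genes.

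Replicates 1 and 2 alone gave 1668 in place of 5190 genes for LPS against DMSO in RNA, 168 for LPS+TM7nox against LPS, 2246 in place of 5850 for LPS+TM7nox against DMSO, 3392 in place of 6090 for LPS in RIP, 789 for LPS+TM7nox against LPS in RIP and 0 for both changes of the ratio, with 0 of the 6 genes called for LPS+TM7nox against LPS in RNA. Ass1 turned to 0.12 (RIP, LPS+TM7nox against LPS) and Odc1 to -0.15 (RIP over RNA in LPS).

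Replicates 3 and 4 alone gave 3489 genes and 4 of the 6 for LPS+TM7nox against LPS in RNA, 1070 in RIP, and 13 and 0 for the changes of the ratio by LPS and by LPS+TM7nox. RIP over RNA in DMSO turned to -0.04 for Gch1, -2.09 for Slc7a2 and 0.06 for Acod1, and Slc7a2 to -0.08 in LPS and -0.37 in LPS+TM7nox. The change by LPS turned to 2.01 for Slc7a2 and 0.17 for Ass1, and that by LPS+TM7nox to -0.11 for Nos2 and -0.29 for Slc7a2. Replicate 3 alone turned Slc7a2 to -0.23 for anti-HuR against IgG.

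Library totals gave 3 of the 6 genes for LPS+TM7nox against LPS in RIP (Slc7a2 and Acod1 gained), 5 for RIP over RNA in each of DMSO, LPS and LPS+TM7nox, 5 in place of 3 for anti-HuR against IgG, and 27 and 2 genes for the changes of the ratio. The share of all genes called was then 13.9% in that RIP comparison and 75.2% against IgG. For RIP over RNA it was 76.1%, 76.6% and 78.5% in DMSO, LPS and LPS+TM7nox. Values turned to -0.64 for Gch1 (RIP over RNA in DMSO); to -0.99 for Slc7a2 and -0.91 for Odc1 (LPS); to -0.92 for Slc7a2 (LPS+TM7nox); and to -0.98 for Gch1 and -0.81 for Slc7a2 (anti-HuR against IgG). Without the filter, 4 of the 6 were called for LPS+TM7nox against LPS in RNA (Ass1 and Acod1 gained), 4 in RIP (Slc7a2, Odc1 and Acod1 gained), 2 for RIP over RNA in DMSO (Odc1 gained) and 4 in LPS+TM7nox (Odc1 and Acod1 gained), and 49 and 5 genes for the changes of the ratio. The share of all genes called in the first 4 of these was 6.01%, 6.25%, 28.7% and 26.9%. Gch1 turned to -0.09 in DMSO, Slc7a2 to -0.04 in LPS and -0.05 in LPS+TM7nox, the change by LPS to 0.03 for Ass1, and that by LPS+TM7nox to -0.05 for Nos2, -0.06 for Gch1 and -0.01 for Slc7a2. DESeq2 called 3 of the 6 for LPS+TM7nox against LPS in RIP (Odc1 and Acod1 gained), beside 20.9% of all genes. It gained Ass1 in RNA, beside 18.5% of all genes called, and called 67 and 3 genes for the changes of the ratio. DESeq2 and RLE size factors turned Gch1 to 0.01 (RIP over RNA in LPS+TM7nox).

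With each library left out in turn, the number of the 6 genes called ranged from 1 to 3 for LPS+TM7nox against LPS in RNA, 1 to 2 in RIP, 1 to 2 for RIP over RNA in DMSO and 2 to 4 in LPS+TM7nox, and the genes called for the changes of the ratio from 4 to 11 (11 without RNA DMSO replicate 1) and 1 to 3 (3 without RIP LPS replicate 3). RIP over RNA ranged in DMSO from -0.01 to 0.20 for Gch1, from -1.5 (without RIP DMSO replicate 2) to 3.54 for Slc7a2 and from -0.40 to 0.09 for Acod1. It ranged in LPS from -0.66 (without RIP LPS replicate 2) to 0.64 (without RNA LPS replicate 2) for Slc7a2 and from -0.04 to 0.23 for Odc1, and in LPS+TM7nox from -0.45 to 0.54 for Slc7a2. The change by LPS ranged from -3.51 to 1.54 for Slc7a2, from -0.30 to 0.14 for Ass1 and from -0.43 to 0.06 for Acod1. That by LPS+TM7nox ranged from -0.13 to 0.24 for Nos2, from -0.15 to 0.19 for Gch1 and from -0.55 to 0.82 for Slc7a2. Anti-HuR against IgG ranged from -0.10 to 0.22 for Gch1.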
